A study of Mus musculus with 3 samples.

Results

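The genes described here are 4 members of the C/EBP family of basic leucine zipper transcription factors (Cebpa, Cebpb, Cebpd and Cebpg), the Kruppel-like factor gene Klf15, the glucocorticoid receptor gene Nr3c1, and 4 genes that glucocorticoids are known to induce (Fkbp5, Tsc22d3, Sgk1 and Zbtb16). They were found by matching the accession of each array probe to a gene symbol. All 10 genes were found, through 11 probes of the 39429 non-control probes on the array (2 for Nr3c1 and 1 for each of the others). Every one of the 11 probes was well above background in both channels on all 3 arrays, so all 10 genes were among the 17460 genes tested. Of these, 12995 had a gene symbol. The other 4465 were entries without one, each counted as a gene, and the shares of all genes given below include them.

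RNA came from lower-limb skeletal muscle of male C57BL/6 mice. The control group is labelled as untreated, and the mFoxO1KO group had an inducible deletion of FoxO1 restricted to skeletal muscle. Both groups ate an AIN93G diet with doxycycline at 0.625 g/kg from 8 to 14 weeks of age, so the controls had the inducing drug too. The promoter that drove the deletion, the alleles that the controls carried and the number of mice behind each RNA are not given in the sources used here. There were 3 biological replicates per genotype, hybridised in pairs on 3 two-colour Agilent arrays, with control RNA always in Cy3 and knockout RNA always in Cy5. Without a dye swap, the dye effect of a probe and the effect of genotype cannot be told apart.

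Glucocorticoids act through the glucocorticoid receptor, a nuclear receptor that is held in the cytoplasm by chaperones and, once it binds hormone, enters the nucleus and binds palindromic response elements in DNA. In skeletal muscle this hormone system promotes protein breakdown and amino acid use during fasting and stress, and Klf15, Cebpb and Cebpd are among the transcription factors that take part. FoxO1 is known to act in the same catabolic programme, to share target genes with the receptor and to bind C/EBP proteins.

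None of the 10 genes passed the test for a difference between genotypes. Of all 17460 genes, 481 (2.75%) passed an adjusted p under 0.05 (limma with Benjamini-Hochberg adjustment over all genes), 359 of them higher (2.06%) and 122 lower (0.699%) in the knockout. The 10 genes had adjusted p-values between 0.06 and 0.711. The 3 with the largest mean ratios were Fkbp5, at 0.89 ± 0.40 on the log2 scale (1.86-fold, SD, n = 3 arrays), Cebpd, at -0.87 ± 0.53 (54.6% of control), and Sgk1, at 0.58 ± 0.28 (1.49-fold). A mean ratio beyond 0.5 in either direction was found for these 3 of the 10 and for 4.86% of all genes, whatever their brightness. At an unadjusted p under 0.05 there were 4 of the 10 (these 3 and Cebpb), against 26.8% of all genes. The median log2 ratio of the 10 was 0.11, and that of all genes was 0.01.

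The promoters of these genes are shown because the pathway acts through short DNA elements, and because Sgk1 and Fkbp5, with 2 of the 3 largest ratios, differ in which elements lie near their start sites. Windows of 300 bases, from 250 before to 50 after an annotated start, came from RefSeq (GRCm38.p6) for 7 of the 10 genes, 14 windows in all. Cebpd, Nr3c1 and Zbtb16 have none here. Both strands were searched for the full receptor element (AGAACA, any 3 bases, TGTTCT), the FoxO site GTAAACA, the C/EBP site TTGCNNAA, its palindromic form TTGCGCAA and the CACCC box CCACACCC. The palindrome TTGCGCAA is one case of TTGCNNAA. The receptor half-site AGAACA was counted too and forms part of the full element. In the windows below, capitals mark a match to the full receptor element or to the C/EBP site, the 2 searched motifs that matched apart from the half-site.
Sgk1 window with the receptor element (chr10:21993640-21993939, + strand): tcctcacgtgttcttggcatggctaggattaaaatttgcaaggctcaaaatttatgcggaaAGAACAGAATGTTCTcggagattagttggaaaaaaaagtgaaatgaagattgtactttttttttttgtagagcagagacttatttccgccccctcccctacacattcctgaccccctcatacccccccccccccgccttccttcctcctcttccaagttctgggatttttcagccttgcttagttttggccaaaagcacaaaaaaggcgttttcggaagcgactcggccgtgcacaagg
Sgk1 window with the C/EBP site (chr10:21978422-21978721, + strand): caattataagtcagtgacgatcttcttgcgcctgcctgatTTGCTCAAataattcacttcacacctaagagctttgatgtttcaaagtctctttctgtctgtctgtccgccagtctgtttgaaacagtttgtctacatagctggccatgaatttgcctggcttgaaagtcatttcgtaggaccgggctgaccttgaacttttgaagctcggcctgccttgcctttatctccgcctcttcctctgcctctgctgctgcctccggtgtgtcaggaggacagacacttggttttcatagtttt
Fkbp5 (chr17:28486100-28486399, - strand): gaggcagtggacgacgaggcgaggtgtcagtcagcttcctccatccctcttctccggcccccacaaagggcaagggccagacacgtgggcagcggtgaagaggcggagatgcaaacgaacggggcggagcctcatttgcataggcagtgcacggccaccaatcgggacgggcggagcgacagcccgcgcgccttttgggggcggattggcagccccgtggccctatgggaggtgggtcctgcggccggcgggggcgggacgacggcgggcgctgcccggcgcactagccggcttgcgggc
One of the 6 Sgk1 windows holds the full receptor element as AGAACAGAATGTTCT, beginning at position -189 from the annotated start. Of all 32851 windows of that length, 3 (0.00913%) hold the element, those of Sgk1, Acnat2 and Gm35041. Another Sgk1 window holds TTGCTCAA, a C/EBP site that 10.8% of all windows have. The Fkbp5 window holds none of these letters. Half-sites were found in 4 of the 14 windows (3 of Sgk1 and 1 of Tsc22d3), against 19% of all windows. No window of the 7 genes holds GTAAACA, CCACACCC or TTGCGCAA, which occur in 3.65%, 3.56% and 0.183% of all windows. These are letters in a 300-base window, and which of the Sgk1 starts was in use in this muscle was not measured.

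The targeted gene was lower in every knockout sample. Foxo1 had normalised levels of 11.33, 12.58 and 12.23 in the controls and 9.83, 10.16 and 9.96 in the knockouts (log2 intensity after normalisation, arrays 1 to 3), with a mean log2 ratio of -2.06 ± 0.49 (SD, n = 3, limma adjusted p = 0.0278). A second Foxo1 probe had -0.70, -1.64 and -1.84 on the arrays. Its mean of -1.39 ± 0.61 did not pass (limma, adjusted p = 0.0535 when every probe was tested). Whether either probe lies in the deleted part was not checked. Without replicate 2 the ratio of the first probe was -1.88 and its adjusted p 0.106. All 15 skeletal muscle fibre markers searched for, such as Acta1, Ckm and Myh4, were detected. Their median ratio was 0.04, with 9 mean ratios above 0 and 6 below. Some varied widely between arrays: Myh2 had -1.69, -0.34 and 1.36, Tnnt1 -0.94, 0.56 and -0.47, and Myh7 -0.80, -0.05 and -0.56. The share of spots well above background ran from 53.1% to 56.9% for control RNA and from 57% to 57.9% for knockout RNA. None of the 11 spots of the 10 genes was saturated or flagged as an outlier. In bulk tissue, fewer cells of a type and less RNA per cell cannot be told apart. Precision is limited by the number of arrays.

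**Figure D1:**
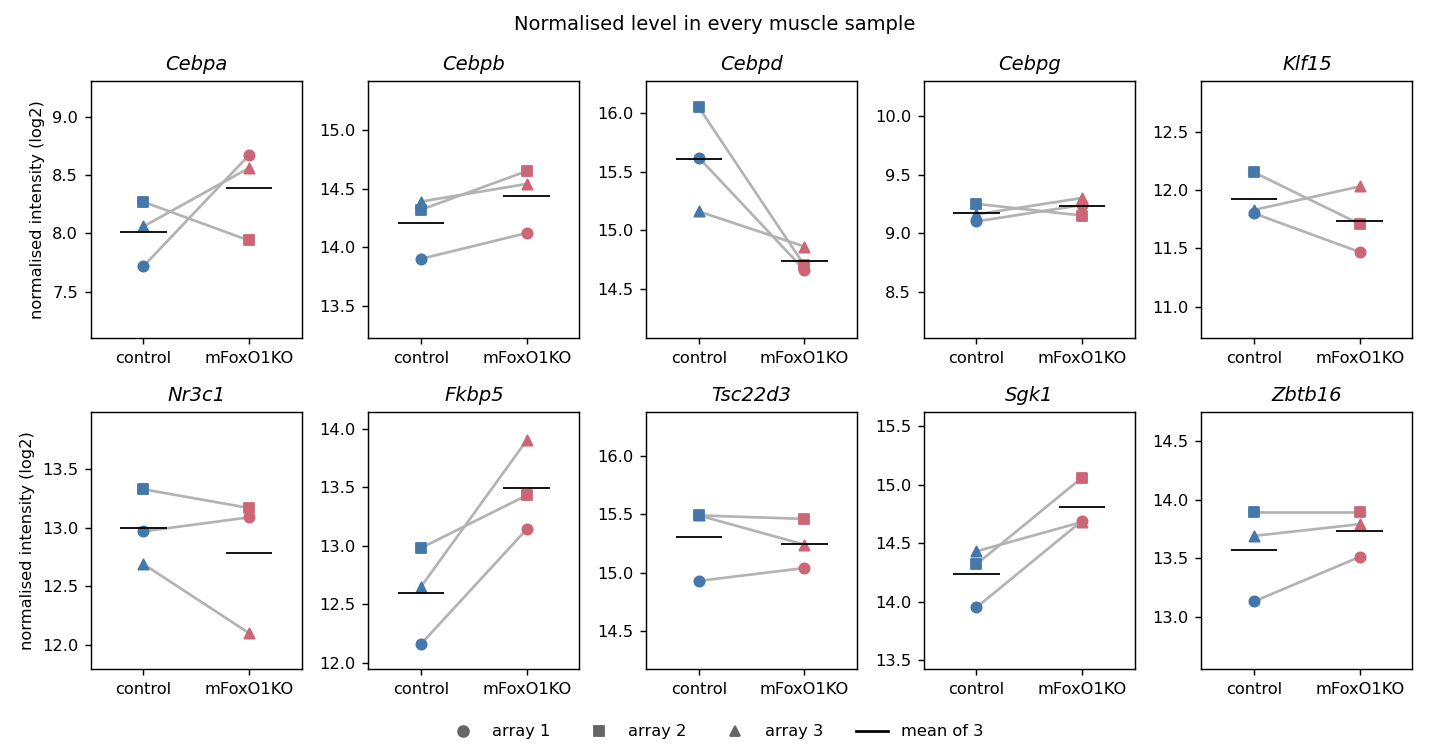
Normalised log2 intensity of each gene in the 3 control and 3 mFoxO1KO samples, with lines joining the 2 samples of an array, array number as symbol and bars at group means. Knockout points lie above all control points for Fkbp5 and Sgk1 and below all of them for Cebpd, while the other 7 genes overlap.

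Fkbp5 had the largest ratio of the glucocorticoid responders. It encodes FKBP51, an immunophilin co-chaperone that lowers the hormone affinity of the receptor and is itself induced by it. Its normalised levels were 12.16, 12.98 and 12.65 in the controls and 13.14, 13.43 and 13.90 in the knockouts. All 3 knockout samples lay above all 3 controls, an arrangement found for 2 of the 10 genes and for 14% of all genes. The array ratios were 0.98, 0.45 and 1.25, the mean 0.89 ± 0.40 with a 95% interval of 0.48 to 1.3 (limma, adjusted p = 0.06). Over 17 processing alternatives that p ran from 0.00214 to 0.139, with 0.0497 when dim probes were kept and 0.00214 when median centring replaced loess.

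Sgk1 was the other gene whose groups did not overlap upward. It encodes a serine-threonine kinase related to Akt that regulates ion channels and can phosphorylate FoxO proteins. Control samples had levels of 13.95, 14.32 and 14.43, and knockout samples 14.69, 15.06 and 14.68. The lowest knockout, at 14.68 on array 3, lay above the highest control, at 14.43 on the same array, and the ratio there was 0.25 against 0.74 on both other arrays. The mean ratio was 0.58 ± 0.28 with a 95% interval of 0.28 to 0.88 (limma, adjusted p = 0.0717). Without replicate 3 it was 0.74 and the adjusted p 0.0457, and with median centring it was 0.90 and the adjusted p 0.00276. The 17 alternatives gave it adjusted p-values of 0.00276 to 0.269.

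Tsc22d3 and Zbtb16 had ratios near 0. Tsc22d3 encodes GILZ, a leucine zipper protein that mediates anti-inflammatory actions of glucocorticoids. Its levels were 14.93, 15.49 and 15.49 in the controls and 15.04, 15.46 and 15.24 in the knockouts, which overlapped. The mean ratio of -0.06 ± 0.18 had a 95% interval of -0.28 to 0.17 (limma, adjusted p = 0.711), and the sign turned without replicate 3 (0.04) and with median centring (0.30). Zbtb16 encodes PLZF, a zinc finger transcription factor. Its control levels were 13.13, 13.89 and 13.69 and its knockout levels 13.51, 13.89 and 13.79, again overlapping. The ratios of 0.38, 0.00 and 0.10 gave a mean of 0.16 ± 0.19 with a 95% interval of -0.07 to 0.39 (limma, adjusted p = 0.307), and 0.05 without replicate 1. The 4 responders did not share a direction on every array: Fkbp5 and Sgk1 had positive ratios on all 3, whereas Tsc22d3 was at 0.11, -0.03 and -0.25. The difference between the Sgk1 and Tsc22d3 ratios, a pair chosen after the values were seen, was 0.63, 0.77 and 0.50 on the arrays and has no test.

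Nr3c1, the receptor gene itself, was measured by 2 probes. The brighter one gave 12.97, 13.33 and 12.69 in the controls and 13.09, 13.17 and 12.10 in the knockouts. The other gave 8.75, 9.13 and 9.23 in the controls and 8.91, 9.18 and 8.64 in the knockouts. On both probes the lowest sample was the knockout of array 3, and on both the groups overlapped. Array ratios were 0.12, -0.16 and -0.59 for the brighter probe and 0.16, 0.06 and -0.60 for the other, so both had their lowest ratio on array 3. The mean ratios were -0.21 ± 0.36 (limma, adjusted p = 0.396) and -0.13 ± 0.41 (adjusted p = 0.643 when every probe was tested). With median centring the brighter probe had 0.05, which turns its sign. Its mean was -0.38 without replicate 1 and -0.02 without replicate 3.

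**Figure D2:**
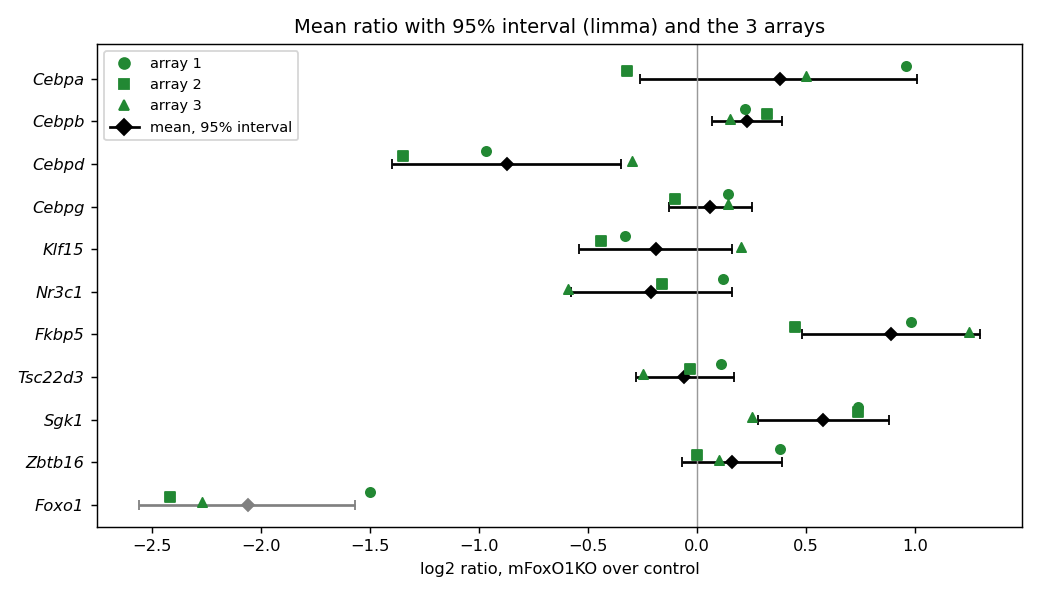
Log2 ratio of mFoxO1KO over control on each array (green symbols), with the mean and 95% interval from limma (diamonds and bars), for the 10 genes and for Foxo1 as the targeted gene (grey). The intervals of Fkbp5, Sgk1, Cebpb and Cebpd leave out 0 before adjustment for 17460 tests, and Foxo1 lies at -2.06.

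Cebpd was the only one of the 10 whose knockout samples all lay below the controls, an arrangement found for 11.8% of all genes. Its product, C/EBP delta, is an early stress and acute-phase factor that glucocorticoids and cytokines induce in muscle. Levels were 15.62, 16.05 and 15.16 in the controls and 14.66, 14.70 and 14.86 in the knockouts. The knockout samples lay within 0.20 of each other, while the controls spanned 0.88, with array 3 the lowest control and the highest knockout. The ratios were -0.97, -1.35 and -0.30, and their mean of -0.87 ± 0.53 had a 95% interval of -1.40 to -0.35 (limma, adjusted p = 0.0874). Leaving out replicate 3 gave -1.16 and an adjusted p of 0.0421, the lowest of the 17 alternatives, whose highest was 0.264.

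Cebpb had a small ratio of similar size on each array. C/EBP beta is a family member tied to hormone and inflammatory signals and to control of atrophy genes. Its levels were 13.90, 14.32 and 14.39 in the controls and 14.12, 14.65 and 14.54 in the knockouts, so the groups overlapped although each knockout exceeded its own control. The ratios of 0.22, 0.32 and 0.15 gave 0.23 ± 0.09 (95% interval 0.07 to 0.39, limma, adjusted p = 0.109). Median centring gave 0.54 and an adjusted p of 0.0346, again the lowest of the 17 alternatives, whose highest was 0.525.

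Of the 10 genes, Cebpa had the ratio that varied most between arrays. C/EBP alpha drives fat cell differentiation and is abundant in adipocytes. Control levels were 7.72, 8.27 and 8.06 and knockout levels 8.67, 7.94 and 8.56, with overlap. The array ratios were 0.96, -0.32 and 0.50, for a mean of 0.38 ± 0.65 (95% interval -0.26 to 1.01, limma, adjusted p = 0.372). That mean was 0.09 without replicate 1 and 0.73 without replicate 2. Adipocyte markers moved in the same array order. The median ratio of 13 tested adipocyte markers was 2.07, 0.19 and 1.03 on the 3 arrays. Their mean ratio was above 0 for 12 of 13 (median of all genes 0.01). Their summed normalised intensity was 78700 to 131000 in the controls and 137000 to 251000 in the knockouts. Of their defining genes, Adipoq had ratios of 2.93, 0.22 and 1.87, while Lep was well above background in no sample. The part of fat tissue in the Cebpa ratio was not tested. Fkbp5 also had its lowest ratio, 0.45, on array 2, but its highest, 1.25, on array 3 rather than array 1. The part of fat in the Fkbp5 ratio was not tested either.

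Cebpg, a family member without a classical activation domain that forms dimers with the others, had the narrowest range of levels within each genotype (0.15 in both). Its levels were 9.10, 9.25 and 9.16 in the controls and 9.24, 9.15 and 9.3 in the knockouts. The mean ratio was 0.06 ± 0.14, with a 95% interval of -0.13 to 0.25 (limma, adjusted p = 0.655). Leaving out single arrays moved it between 0.02 (without replicate 1 or 3) and 0.14 (without replicate 2). With the scanner software's processed signals and with the deposited log ratios it was 0.00 with the opposite sign before rounding.

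Klf15, which drives amino acid catabolism in muscle and is a direct target of the receptor, had groups that overlapped. Its levels were 11.80, 12.15 and 11.83 in the controls and 11.47, 11.71 and 12.03 in the knockouts. On arrays 1 and 2 the knockout lay below its control, at -0.33 and -0.44, and on array 3 above it, at 0.20. The mean was -0.19 ± 0.34 (95% interval -0.54 to 0.16, limma, adjusted p = 0.414), and with median centring it was 0.03. With 1 array left out it ran from -0.38 (without replicate 3) to -0.07 (without replicate 2). The difference between the Klf15 and Cebpd ratios was 0.64, 0.91 and 0.50 on the 3 arrays, and that between Fkbp5 and Cebpd 1.94, 1.81 and 1.55 (1.77 ± 0.20). Both pairs were chosen after the values were seen and have no test. The Fkbp5 and Cebpd ratios each varied more between arrays (SD 0.40 and 0.53) than their difference did.

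**Figure D3:**
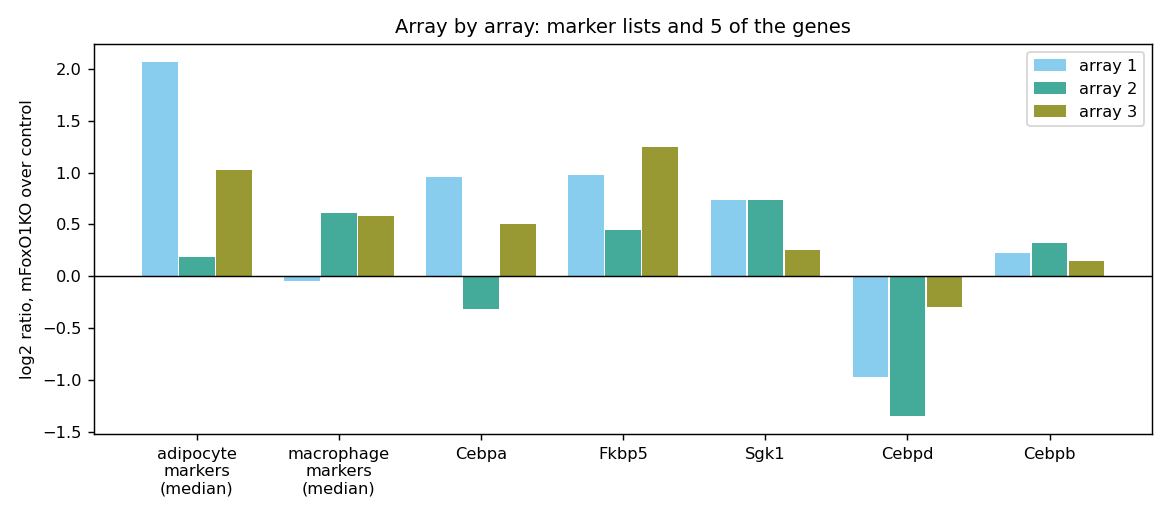
Log2 ratio of mFoxO1KO over control on arrays 1, 2 and 3, as the median of 13 adipocyte and 7 macrophage markers and as single values of 5 genes. Cebpa and the adipocyte markers have their highest ratio on array 1 and their lowest on array 2, while Cebpd is lowest on array 2.

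The 10 genes varied more between samples of a genotype than most genes did. They were also brighter than most: all but Cebpa (38.2) and Cebpg (52) lay between percentiles 81.2 and 98 of mean intensity. Genes of similar brightness were not compared separately. The spread of the 3 control levels (highest minus lowest, log2) had a median of 0.56 over the 10 genes and 0.21 over all genes, and in the knockouts 0.47 against 0.20. For 9 of the 10 the control spread was above the median of all genes, Cebpg being the exception. The control of array 2 was the highest of the 3 controls for 8 of the 10 genes, against 31.1% of all genes. The control of array 1 was the lowest for 8 of the 10, against 36.1% of all genes. Foxo1 had the same order of controls, with 11.33 on array 1 and 12.58 on array 2. The order was not particular to these genes. Summed control levels of adipocyte markers had it (78700, 131000 and 97900 on arrays 1 to 3). So did those of erythroid (31200, 79900 and 55500), fibroblast, endothelial and neutrophil markers. Those of fibre (986000, 969000 and 953000), macrophage and lymphocyte markers were highest on array 1. The reason for the order was not tested. One sign on all 3 arrays was seen for 5 of the 10 genes, against 52.4% of all genes, so this share is near the background. Cebpb, Fkbp5, Sgk1 and Zbtb16 had it upward (27.9% of all genes) and Cebpd downward (24.5%). Zbtb16 counted as upward although its ratio on array 2 was 0.00 after rounding.

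For the 3 genes with the largest mean ratios, the genes with the most similar ratios over the 3 arrays were found by the root mean square difference. Fkbp5 was nearest to Sowahc (0.132), Dgat2 (0.132), which encodes a triglyceride synthesis enzyme, and Cilp (0.139). Cebpd was nearest to the atrophy ubiquitin ligase gene Fbxo32 (0.166), whose ratios were -0.72, -1.22 and -0.23, then to Tmem140 (0.201) and Zfp932 (0.232). Sgk1 was nearest to Mpp3 (0.058), Ctla2a (0.060) and the basement membrane collagen gene Col4a1 (0.082). These distances rest on 3 arrays and have no test.

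Some other genes known to be induced by glucocorticoids passed the test. Of 27 tested, 5 rose, none fell and 22 did not pass, with a median of 0.30, where 2.06% of all genes rose and 0.699% fell. The list was chosen with earlier results of these data known, so these shares do not measure enrichment. The 5 were the metallothionein gene Mt1 (2.14 ± 0.35, limma, adjusted p = 0.0134), Tgm2, a transglutaminase gene (0.63), the kinase gene Map3k6 (0.54), the cell cycle inhibitor gene Cdkn1a (0.83) and the lipocalin gene Lcn2 (1.14). All knockout samples lay above all controls for 7 of the 27 (14% of all genes) and below them for 3 (11.8% of all genes). Of those that did not pass, Mt2, another metallothionein gene, had 2.24 ± 0.95 (adjusted p = 0.0517), and Dusp1 (0.61), Mstn (0.48) and Angptl4 (0.87) also had groups apart upward. The 3 with groups apart downward were Fbxo32 (-0.72), Klf9 (-0.54) and Pdk4 (-0.42), with adjusted p-values of 0.104, 0.0699 and 0.138. Of the machinery of the receptor, none of 15 genes passed (median 0.07). Hsd11b1, whose enzyme regenerates active glucocorticoid inside cells, had levels of 9.11, 9.51 and 9.44 in the controls and 10.41, 9.85 and 10.51 in the knockouts. Its ratios of 1.3, 0.35 and 1.07 gave 0.90 (adjusted p = 0.0768), with the same order of arrays as the adipocyte medians, and the part of fat in it was not tested. The chaperone gene Hsp90ab1 had 0.29 (adjusted p = 0.0677), and Ptges3, which encodes the p23 co-chaperone, -0.20 (adjusted p = 0.12).

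Genes downstream of or related to the C/EBP factors and Klf15 were examined next. Of 9 tested acute-phase genes that C/EBP factors bind, the haptoglobin gene Hp (1.85 ± 0.11, limma, adjusted p = 0.00934) and Lcn2 rose (2.06% of all genes did), none fell and 7 did not pass, with a median of 0.43. Lcn2 was already counted among the glucocorticoid-induced genes, and this list too was chosen with earlier results known. The orosomucoid gene Orm2 had 0.54 and the ceruloplasmin gene Cp 0.43, both with their lowest array ratio on array 2 (0.26 and 0.22). Of 10 other C/EBP family members and dimer partners none passed (median -0.10). Atf4 had 0.28 and Nfil3, a bZIP repressor gene, 0.93 with ratios of 1.46, 1.06 and 0.26. None of 12 other Kruppel-like factor genes passed (median -0.05), with Klf9, a glucocorticoid-induced member, at -0.54 (-0.56, -0.78 and -0.28 on the arrays, adjusted p = 0.0699) and Klf13 at 0.44. None of 12 metabolic genes tied to Klf15 passed either (median 0.14). The mean was above 0 for 10 of the 12, where the median of all genes was 0.01. The groups lay apart upward for 5 of the 12 (14% of all genes) and downward for 0 (11.8% of all genes). The alanine aminotransferase gene Gpt2 had -0.33 (adjusted p = 0.0747), the fatty acid activation gene Acsl1 0.51 (adjusted p = 0.0816) and the glucose transporter gene Slc2a4 0.28. Pck1, the gene of a gluconeogenic and glyceroneogenic enzyme, had 3.47, 0.01 and 2.30 on the arrays (1.92 ± 1.76, adjusted p = 0.153). This is the array order of the adipocyte medians. Acsl1 (0.79, 0.26 and 0.47) and Slc2a4 (0.49, 0.09 and 0.28) had that order too. The part of fat in the ratios of these genes was not tested.

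**Figure D4:**
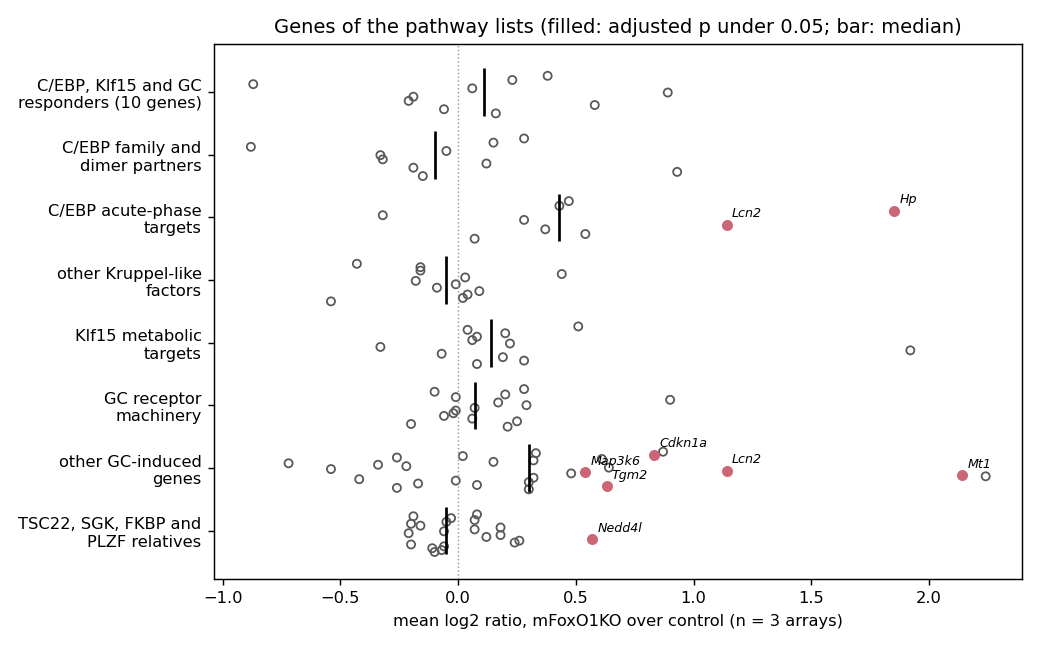
Mean log2 ratio of each tested gene in the pathway lists (n = 3 arrays), with genes past the adjusted p threshold filled and named and the list median as a bar. GC stands for glucocorticoid. No filled point lies in the top row, that of the 10 genes, whose values run from -0.87 to 0.89.

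With median centring in place of loess, which leaves any trend of the dye ratio with intensity in place, the ratios of all 10 genes were higher. The median log2 ratio of all genes was then 0.156 in place of 0.006, and that of the 10 genes 0.37 in place of 0.11. The members past the threshold were then Fkbp5, Sgk1 and Cebpb, among 1204 genes (1153 higher and 51 lower). As scanned, before any dye correction, the Cy5 over Cy3 ratio was above 1 on every array for 10 of the 11 probes, the exception being Cebpd with 0.906, 0.66 and 1.59. The share of all probes with such ratios was not computed. The median scanned signal of all non-control spots was 101, 102 and 99 in Cy5, against 90.5, 97 and 92 in Cy3.

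**Figure D5:**
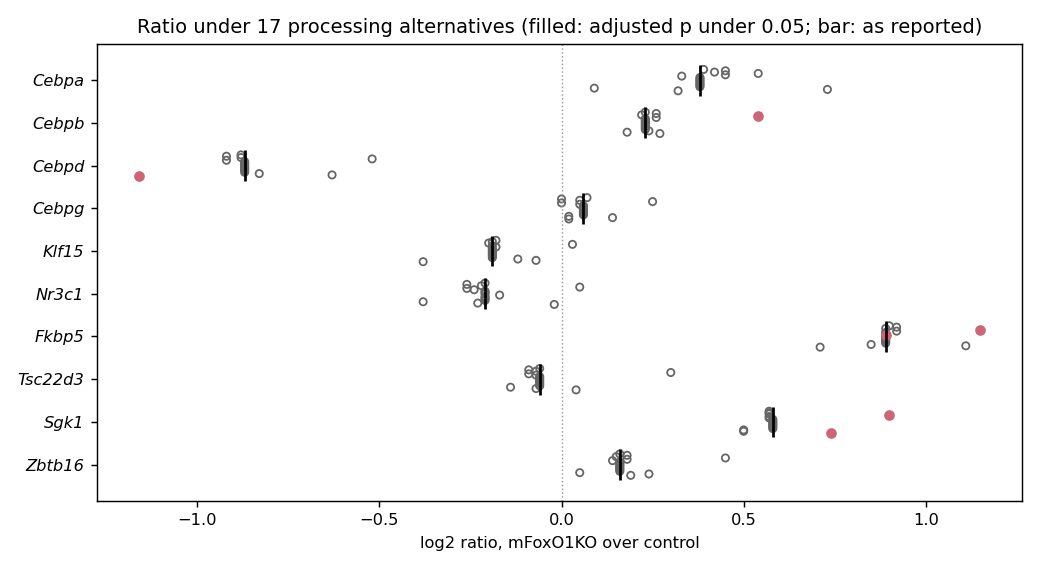
Log2 ratio of each of the 10 genes under 17 processing alternatives (points, filled where the adjusted p was under 0.05) and as reported (bars). Fkbp5 runs from 0.71 to 1.15, Sgk1 from 0.50 to 0.90 and Cebpd from -1.16 to -0.52, each without a change of sign.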

How the data were processed

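The 3 two-colour Agilent arrays were analysed, each with 0.2 µg of labelled total RNA per channel per the labels' protocols. The deposited intensity values are median spot and local background signals, used here, and the scanner software's processed signals, per the file headers. The headers name Agilent Feature Extraction 11.5.1.1 and the submitters' processing notes 9.3.2.1. The deposited log10 ratio is processed Cy5 over processed Cy3 signal, checked within 0.001 for 100% of spots well above background in both channels and 75.6% of all spots.

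Signals were background-corrected by normexp with an offset of 50, then loess-normalised within arrays, controls weighted 0 (limma 3.58.1, R 4.3.3). Outlier spots, 281 to 319 per array, were left out. Probes were kept if well above background (in at least 0.5 of their spots) in 1 channel on all 3 arrays, and the brightest probe per gene was used. Accessions were named through RefSeq (GRCm38.p6), which gave symbols to 69.8% of probes. The log2 ratio was tested against 0 with limma (lmFit, eBayes, two-sided, Benjamini-Hochberg over all genes, threshold 0.05). The fit was also run on simulated ratios with known changes as a check of the code, and no result here rests on it. Levels are channel values after Aquantile, which leaves ratios as they were. Errors are SD over arrays.

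The 10 genes and 16 other lists were chosen with earlier results of these data known. Named genes are the 10, Foxo1, and list members of smallest p (up to 4 a list) or past the threshold. Also named are the 3 nearest genes of the 3 largest ratios, among genes with a symbol outside the 10. Mt2, Dusp1, Mstn, Angptl4, Pdk4, Pck1, Adipoq, Lep, Cd163, Fcgr1, Ckm, Myh2, Myh4, Myh7 and Tnnt1 were named outside that rule after their values were seen. The array itself pairs the channels.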

Additional observations from a re-analysis of the deposited data

How the results depend on the processing

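Of 170 values (10 genes under 17 alternatives), 158 kept their direction and their side of the threshold, 6 gained an adjusted p under 0.05 and 6 changed sign. The sign changes were those of Cebpg with processed signals and with deposited log ratios (0.00 each), of Klf15 (0.03), Nr3c1 (0.05) and Tsc22d3 (0.30) with median centring, and of Tsc22d3 without replicate 3 (range -0.14 to 0.04 with 1 array left out). The number of the 10 genes past the threshold was 0 as reported, 3 with median centring, 1 with no filter on dim probes, and 0 to 2 with 1 array left out. The count over all genes was 481 as reported, 212 with processed signals, 200 with deposited log ratios, 254 with an offset of 16, 835 with ratios scaled between arrays, 1204 with median centring, 746 with no filter and 55 with probes above background in both channels. It was 481 with separate channels and the array as a replicate block, 215 with no replicate block, and 49 to 405 with 1 array left out. Why these counts differ was not tested. Foxo1 had -2.35 to -1.88 with 1 array left out. The alternatives with mean spot signals and with the array design's gene names were not run, since the deposited array data hold neither. All 11 probes of the 10 genes were well above background in both channels on every array.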

Other observations

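Of 21 tested relatives of Tsc22d3, Sgk1, Fkbp5 and Zbtb16, 1 rose and none fell (median -0.05), where 2.75% of all genes passed in either direction. It was Nedd4l, the gene of a ubiquitin ligase that SGK1 phosphorylates, with levels of 10.97, 11.31 and 11.21 in the controls and 11.57, 11.88 and 11.74 in the knockouts. Its ratios of 0.60, 0.57 and 0.53 gave a mean of 0.57 ± 0.04 (SD, n = 3, limma, adjusted p = 0.0313). Sgk3, another member of the kinase family, had 0.27, 0.24 and 0.27 (adjusted p = 0.0744), an even ratio beside the 0.74, 0.74 and 0.25 of Sgk1. Tsc22d1 had 0.24 (adjusted p = 0.0889) and Fkbp2 -0.20.

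Among cell type markers, 7 macrophage genes had a median ratio of -0.05 on array 1, 0.61 on array 2 and 0.58 on array 3, a different order from that of the adipocyte genes. Their summed intensity was 2290 to 3170 in the controls and 3010 to 3840 in the knockouts, and none passed the test. Cd163 was well above background in 0 of 3 control and 2 of 3 knockout samples, and Fcgr1 in 0 of 3 and 1 of 3. Of the other lists none of 10 endothelial (median 0.11), 10 fibroblast (0.10), 6 erythroid (0.21), 4 neutrophil (0.20) and 4 lymphocyte (-0.04) genes passed. Erythroid genes had medians of 0.77, 0.02 and -0.13 on the arrays. Of the 15 fibre markers the myosin light chain gene Myl1 fell by 0.60 and the myoglobin gene Mb rose by 0.57, and of the 13 adipocyte markers Car3, which muscle fibres also express, fell by 0.81. Of 3 tested FoxO genes (median -0.09) Foxo1 fell, and Foxo6 had 0.39 (adjusted p = 0.0881) and Foxo4 -0.09.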
